A study of Arabidopsis thaliana with 12 samples.

Results

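GH9B8 (AT2G32990), GH9B11 (AT2G44560) and GH9B16 (AT4G38990) are 3 genes of Arabidopsis thaliana for endoglucanases of glycoside hydrolase family GH9, subfamily B. They were found by gene symbol in the array's probe annotation, each with 1 probe that lists no other gene, and they make up 3 of 691 genes with a probe of their own and 3 of 3439 probes measured. The genes were put forward with the paraquat result of these samples already known. Their differences between the groups are therefore given as a description, with no test. GH9B12 also has a probe of its own and is reported beside them, with its test.

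The RNA came from wild-type plants of the Landsberg ecotype, which the labels do not assign to an organ or an age. Both groups were kept in darkness for 12 h and collected 30 min into the following light period, 6 samples treated with water and 6 samples with 50 µM paraquat. Paraquat is a herbicide that diverts electrons of illuminated photosystem I to oxygen, which yields superoxide. Each group carries sample numbers 1 to 6 in its labels, with no word on whether these are separate plants, so errors and p-values reflect sample-to-sample spread alone, part of which may be technical.

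GH9 endoglucanases cut internal bonds of β-glucan chains such as cellulose. In plants the enzymes of subfamily A are anchored in a membrane, and KORRIGAN, which works with cellulose synthesis at the plasma membrane, is the known example. Enzymes of subfamily B are secreted and consist of the catalytic domain, and those of subfamily C carry a carbohydrate-binding module in addition. Such enzymes take part in loosening and remodelling of the wall as cells grow, ripen or separate. RefSeq symbols and synonyms place 24 genes in the family, 4 in subfamily A, 17 in B and 3 in C. Probes of the array list 10 genes of subfamily B and 2 of C, alone or together, and none of A.

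All 3 transcripts had a lower mean signal under paraquat than under water. GH9B8 was 2.31-fold lower, GH9B11 1.97-fold lower and GH9B16 1.86-fold lower after quantile normalization, and each was lower in all 6 numbered pairs of samples. In 2 of the 3 genes every paraquat sample lay below every water sample, a pattern that 20.0% of all probes showed on the normalized scale and 14.6% in the deposited values. Lower values in all 6 pairs were found for 29.0% of all probes. Since these genes were chosen with the contrast known, nothing is read from their share.

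The paraquat signals of GH9B8 lay near the lower end of the array's range, and its water signals lay below the column medians. Its deposited intensity, a scaled linear value whose reference is unknown, ran from 0.180 through a median of 0.361 to 0.400 in the 6 water samples. In the 6 paraquat samples it ran from 0.0973 through 0.139 to 0.2002. The groups overlapped, because water sample 4 (0.180) lay below paraquat sample 6 (0.2002). The other 5 water samples, from 0.230 upward, were above every paraquat sample. The mean was 0.317 ± 0.089 (SD, n = 6) in the water group. It was 0.143 ± 0.037 (SD, n = 6) in the paraquat group. The log2 difference, paraquat minus water, was -1.21 ± 0.25 (SE). Between samples of the same number it ranged from -2.03 for number 1 to -0.21 for number 4. The 5th percentile of all values above 0 was 0.118, and 2 of the 6 paraquat values of GH9B8 were under it, so the size of this difference rests in part on dim signals.

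GH9B11 stands in a run of 4 neighbouring genes, GH9B9 to GH9B12, in the RefSeq order of assembly TAIR10.1. Its deposited intensity ran from 0.628 through a median of 0.680 to 0.927 under water. Under paraquat it ran from 0.342 through 0.434 to 0.599. The groups did not overlap, though the highest paraquat sample, number 3 (0.599), came close to the lowest water sample, number 6 (0.628). The means were 0.732 ± 0.113 (SD, n = 6) and 0.456 ± 0.096 (SD, n = 6), and the log2 difference was -0.98 ± 0.14 (SE). Water samples 1 and 2 (0.927 and 0.807) were the highest of the 12, and the other 4 water samples lay within 0.628 to 0.682. Number 3 gave the smallest difference of a numbered pair (-0.43) and number 2 the largest (-1.26).

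GH9B16 is the first of 3 neighbouring genes, GH9B16 to GH9B18. Its deposited intensity ran from 0.648 through a median of 0.689 to 0.788 under water. Under paraquat it ran from 0.333 through 0.507 to 0.546. The groups did not overlap, and the water samples were the most even of the 3 genes on the log2 scale, with an SD of 0.12 against 0.22 for GH9B11 and 0.58 for GH9B8. The means were 0.714 ± 0.059 (SD, n = 6) and 0.480 ± 0.078 (SD, n = 6), and the log2 difference was -0.90 ± 0.11 (SE). Paraquat sample 6 (0.333) stood apart below the other 5, which lay from 0.457 to 0.546. Without it the log2 difference was -0.81. Numbers 1 to 5 gave differences from -0.87 to -0.73, and number 6 gave -1.49.

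**Figure D1:**
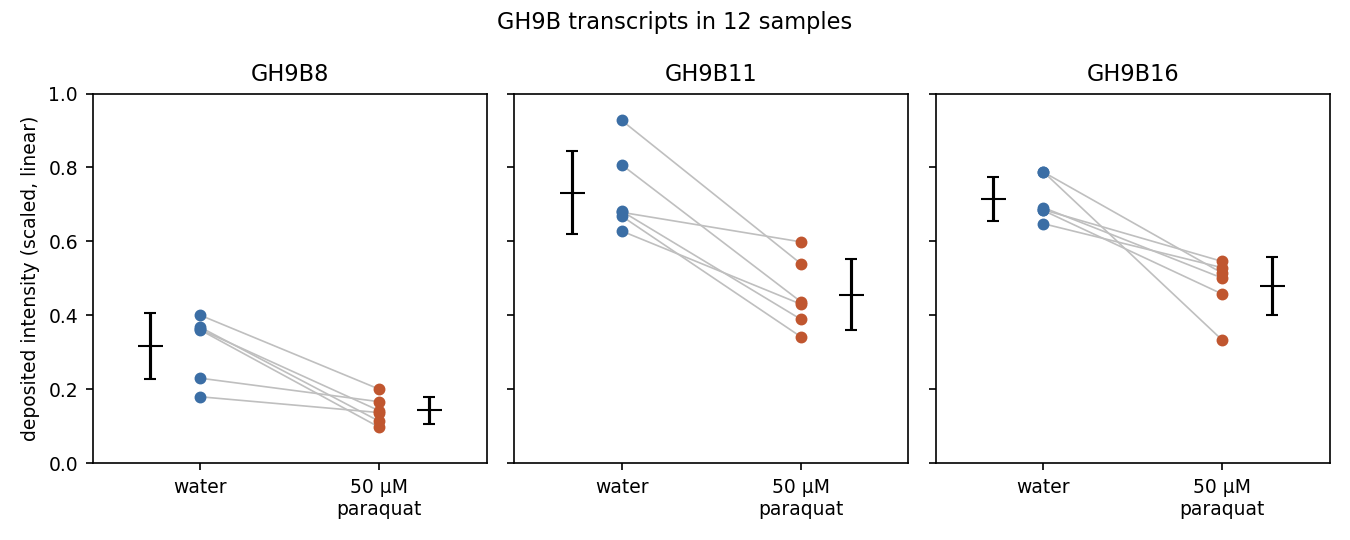
Deposited array intensity (scaled, linear axis from 0) of GH9B8, GH9B11 and GH9B16 in 6 water and 6 paraquat samples; grey lines join samples of the same number, and the black marks give mean ± SD. All 18 lines slope down, and the groups overlap for GH9B8 alone, where water sample 4 (0.180) lies below paraquat sample 6 (0.2002).

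The 3 genes did not share a common order of samples within the groups. Over the 6 water samples the correlation of log2 values was 0.57 between GH9B8 and GH9B16, 0.06 between GH9B8 and GH9B11 and -0.40 between GH9B11 and GH9B16. Over the 6 paraquat samples the same pairs had correlations of -0.68, -0.04 and -0.03. These values are descriptions over 6 samples each, some of which may be repeated readings. Spread was taken within the pairs of neighbouring numbers 1 and 2, 3 and 4, 5 and 6, and between the means of those pairs. A mean of 2 samples varies less than 1 sample, so without likeness of neighbours the SD between means is expected to be lower. For GH9B8 under water the SD was 0.58 within those pairs and 0.40 between their means. For GH9B16 under water the SD within those pairs was 0.025, against 0.13 between their means. GH9B11 had 0.085 and 0.24 under water. Under paraquat the spread within the pairs was the larger in all 3 genes, at 0.35 against 0.15 for GH9B8, 0.28 against 0.15 for GH9B11 and 0.26 against 0.12 for GH9B16.

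The place of a probe in the numbering moved with the size of these differences. Along the probe numbers the fold changes of all probes repeat in a fixed cycle, which was divided here into 24 steps of 12 numbers. The lowest step had a median log2 fold change of -0.77 and the highest a median of 0.61. The other probes at the step of GH9B8 had a median of -0.57, those at the step of GH9B11 -0.42 and those at the step of GH9B16 -0.36. All 3 genes thus lay at steps where the bulk of the probes was lower under paraquat. After each sample was centred by position, the log2 differences were -0.67 ± 0.25 (SE) for GH9B8, -0.47 ± 0.15 (SE) for GH9B11 and -0.63 ± 0.12 (SE) for GH9B16, which correspond to 1.59-fold, 1.39-fold and 1.55-fold lower signals. The groups then remained apart for GH9B16, as for 17.0% of all probes, and overlapped for GH9B8 and GH9B11. After centring, GH9B11 and GH9B16 were still lower in all 6 numbered pairs, while GH9B8 was higher in number 4 (0.29).

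**Figure D2:**
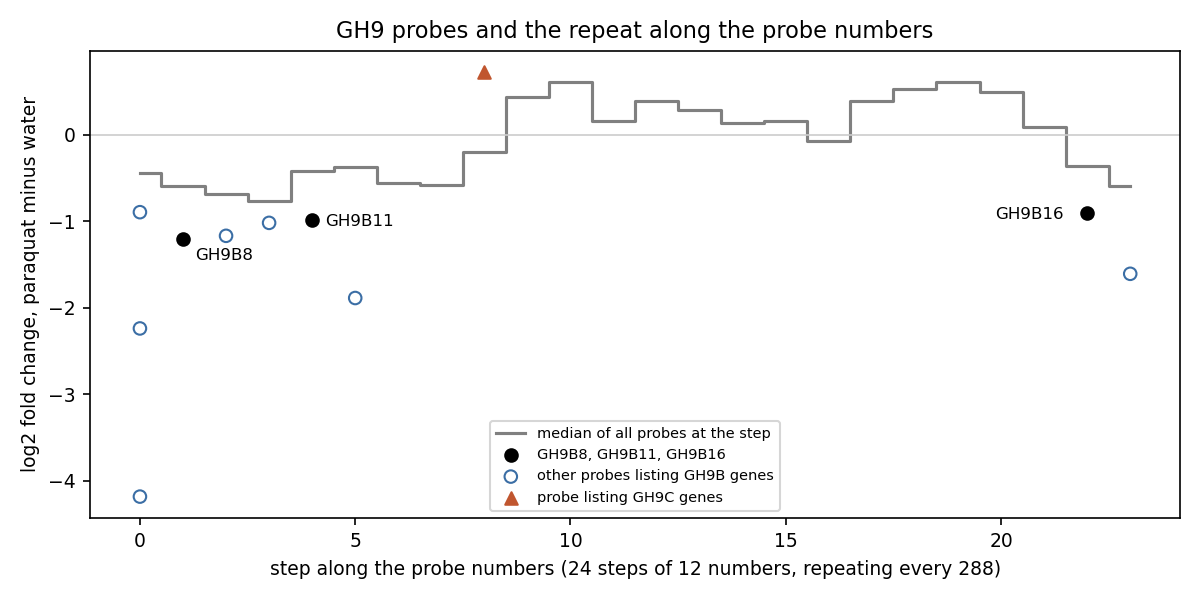
Log2 fold change (paraquat minus water) of each GH9 probe against its step along the probe numbers; the grey line is the median of all probes at a step, filled points are GH9B8, GH9B11 and GH9B16, open points are other probes that list GH9B genes, and the triangle is the probe that lists GH9C genes. All 10 points of subfamily B lie below the grey line, at steps whose median is itself below 0.

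The rest of subfamily B was described from 7 further probes. GH9B12, the neighbour of GH9B11, had a deposited intensity from 0.101 through a median of 0.217 to 0.323 under water. Under paraquat it ran from 0 through 0.124 to 0.190, and the groups overlapped. Its log2 difference was -1.89 ± 1.20 (SE) and did not pass the test (limma, adjusted p = 0.213). That size rests on paraquat sample 1, which is listed at 0. Without that sample the log2 difference was -0.64 (adjusted p = 0.137).

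The other 6 probes list several genes, so their values belong to no single gene, and 2 of them also list GH9B11 or GH9B16. Of the 7 probes, 5 fell at an adjusted p under 0.05 in limma, where 28.5% of all probes fell and 52.5% changed in either direction. After position centring 3 of the 7 were called lower, against 26.2% of all probes. When samples of neighbouring numbers were averaged and paired by a block, 4 of the 7 were called lower, against 20.0% of all probes. In all 3 fits the 2 probes that also list GH9B11 or GH9B16 were among those called lower. Those genes were chosen with the contrast known, so nothing is read from these shares. The 7 probes were picked from the annotation after the table had been opened.

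The probe that lists GH9B9 to GH9B12 together fell 2.25-fold (log2 -1.17 ± 0.13, SE; limma, adjusted p = 1.36e-05), with deposited means of 0.762 under water and 0.414 under paraquat. The probe that lists GH9B16 to GH9B18 together fell 3.05-fold (log2 -1.61 ± 0.13, SE; limma, adjusted p = 1.45e-06), from 0.867 to 0.345. Both kept their call after position centring, with log2 differences of -0.72 and -1.12. With neighbouring numbers averaged and paired by a block, their adjusted p was 0.0193 and 0.0165 (limma). The probe of GH9B9 and GH9B10 fell by 1.02 on the log2 scale and lost its call after centring (-0.33, limma, adjusted p = 0.135). For GH9B14 and GH9B15, which share a pair of probes, the values differed in size. The first of these probes was at -2.24 (limma, adjusted p = 0.000101) and the second at -0.89 (limma, adjusted p = 0.147). The size of the first rests on dim signals, since 4 of its 6 paraquat values lay under the 5th percentile and its deposited mean went from 0.373 under water to 0.0907 under paraquat. A probe of GH9B17, GH9B18 and a gene outside the family was at -4.18 ± 1.47 (SE), with 2 paraquat samples listed at 0, so its size depends on the value given to zeros (limma, adjusted p = 0.0313). After centring it did not pass (adjusted p = 0.0617), nor with neighbouring numbers averaged and paired by a block (limma, adjusted p = 0.127).

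All 10 probes that list a GH9B gene, the 3 own probes of GH9B8, GH9B11 and GH9B16 included, had a log2 fold change below 0. This held after position centring as well, with a median of -1.19 before and -0.69 after it. The medians of all 3439 probes were -0.04 and -0.07. Of all probes, 51.3% were below 0 before centring, and 1840 of the 3439 were below 0 after it. The 10 probes are not independent measurements. Several list the same genes, and they lie at steps with medians from -0.76 to -0.36. The probes of the run GH9B9 to GH9B12 follow each other at a spacing of 12 probe numbers. All 10 were lower than the median of the other probes at their own step. By definition about as many probes of a step lie below its median as above it. The 10 include the 3 genes chosen with the contrast known, and probes that also list GH9B11 or GH9B16. Nothing is therefore read from these counts. What part the place of the probes has in the result was not tested beyond the centred values.

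The probe of subfamily C, which lists GH9C2 and GH9C3, went the other way. It rose 1.65-fold (log2 0.73 ± 0.26, SE; limma, adjusted p = 0.0345) and stood at 0.84 after position centring (adjusted p = 0.0339). It lost its call in the fit of paired averages of neighbouring numbers (adjusted p = 0.0648). Its signal was low, with a deposited mean of 0.133 under water and 0.202 under paraquat. In the water group 3 of 6 values lay under the 5th percentile. It lies at a step with a median of -0.21. The difference between the subfamilies was not tested.

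**Figure D3:**
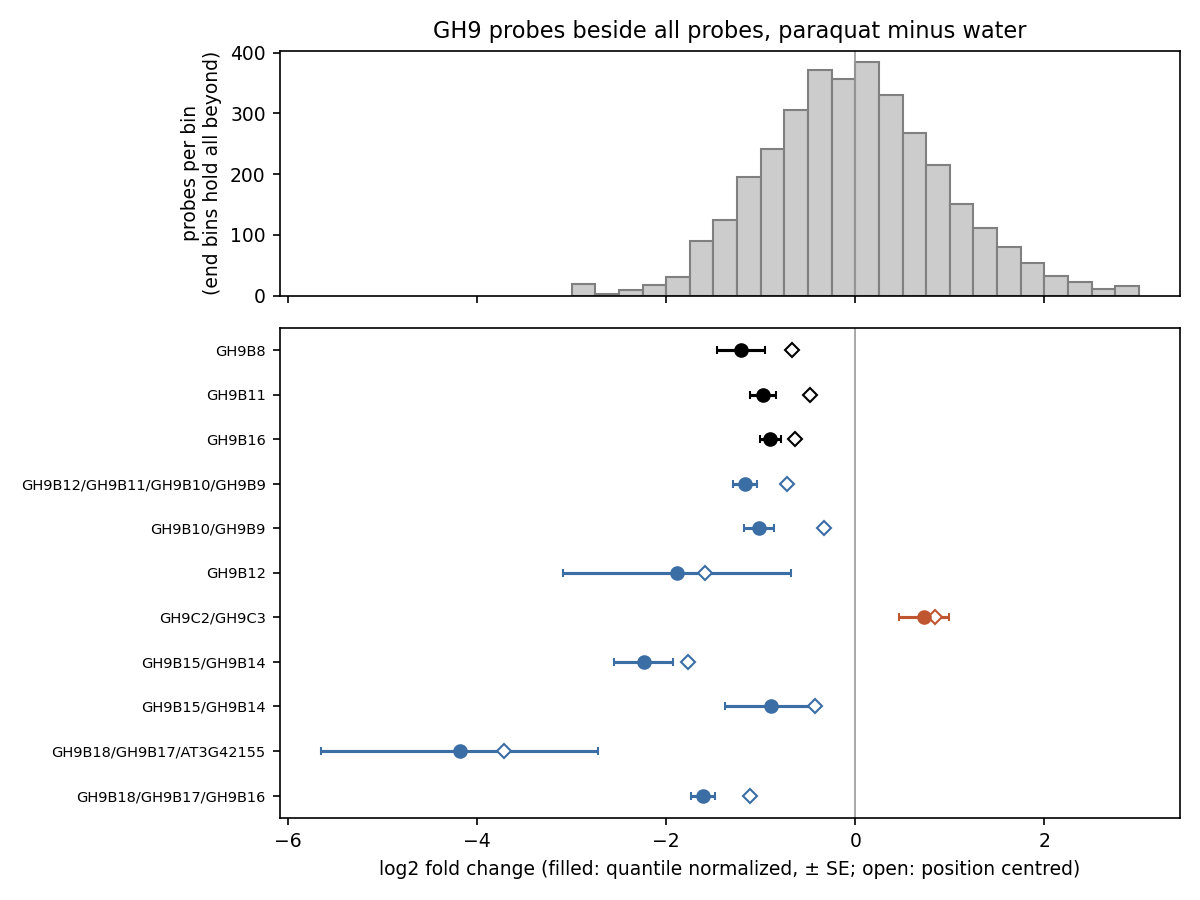
Upper panel, number of probes per bin of log2 fold change (paraquat minus water) over all 3439 probes, with the end bins holding all values beyond. Lower panel, log2 fold change of each GH9 probe, filled with SE after quantile normalization and open after position centring; slashes join the genes that 1 probe lists, and the 10 rows of subfamily B are below 0 while the GH9C row is above.

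Other genes of the wall were scarce on the array. The lists covered cellulose synthases and their relatives, xyloglucan enzymes, expansins, pectin enzymes, wall glycosidases, wall proteins and lignin synthesis, and of these 1 gene had a probe of its own. That gene is CSLA01, a cellulose synthase-like gene of a group whose enzymes make mannan backbones. Together with GH9B12, 1 of 2 wall genes beside GH9B8, GH9B11 and GH9B16 passed the test. The deposited intensity of CSLA01 ran from 0.374 through a median of 0.417 to 0.531 under water and from 0.147 through 0.223 to 0.332 under paraquat, with no overlap. It fell 2.25-fold (log2 -1.17 ± 0.19, SE; limma, adjusted p = 0.000246) and by 0.72 after position centring (adjusted p = 0.00507). With neighbouring numbers averaged and paired by a block, its adjusted p was 0.018 (limma). CSLA01 too lies at a step with a low median (-0.68).

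The labels name no organ, so green tissue was checked through antenna genes. LHB1B2, an antenna protein gene of photosystem II and the 1 gene of that list with its own probe, had a deposited mean of 17.5 ± 3.0 (SD, n = 6) with water and of 10.8 ± 1.4 (SD, n = 6) with paraquat. It fell by 0.66 on the log2 scale (limma, adjusted p = 0.00141). With neighbouring numbers averaged and paired by a block, its adjusted p was 0.0309 (limma). Position centring brought LHB1B2 to -0.20, which did not pass (adjusted p = 0.36). In such bulk samples fewer cells of a type and less transcript per cell cannot be told apart.

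The genes whose 12 values were most like those of each endoglucanase gene were found by Pearson's r over the 12 samples among the probes with 1 gene. The step between the groups enters each r, and the pool was searched for likeness, so no p is given. For GH9B11 they were UBA1A (AT2G22090, r = 0.98), AT4G20690 (0.96) and AT4G01810 (0.96). UBA1A was 2.83-fold lower under paraquat, with deposited means of 0.787 and 0.331, and its deviations from the group means still had an r of 0.89 with those of GH9B11.

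For GH9B16 the 3 most alike were AT4G22490 (r = 0.97), AT1G72640 (0.96) and AT3G57630 (0.96). AT4G22490 was lower by a log2 difference of -1.87, with an r of 0.82 for the deviations from the group means. The size of this difference rests on dim signals. The deposited mean of AT4G22490 was 0.336 under water and 0.0951 under paraquat, where the 5th percentile of values above 0 was 0.118. For GH9B8 they were AT4G20300 (0.91), AT4G33480 (0.90) and AT2G46910 (0.89). The probes of AT4G20300 and AT2G46910 lie at the same step of the probe numbers as that of GH9B8. The search used values before position centring, and what part the shared step has in these r values was not tested. AT4G20300 was at -0.54 and at 0.00 after position centring, and its deviations had an r of 0.80 with those of GH9B8.

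Scaling changed the sizes and no direction for GH9B8, GH9B11 and GH9B16. The bulk of the probes itself moved with the scaling, to a median of 0.19 with the values as deposited and of -0.16 with median centring. Relative to that median, GH9B8 was at -1.17 as reported, -1.32 with the deposited values and with median centring, and -1.04 with cyclic loess. Median centring shifts each column of the deposited values by a constant, so these settings give the same relative value by construction. GH9B11 was at -0.94, -0.88 and -1.05, and GH9B16 at -0.86, -0.78 and -0.94 in the same order. As reported, the ranges of 1 SE around the differences of the 3 genes overlapped for every pair of genes, and with cyclic loess GH9B8 and GH9B11 were both at -1.05 before that median was taken off, so no order of the 3 sizes is given.

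**Figure D4:**
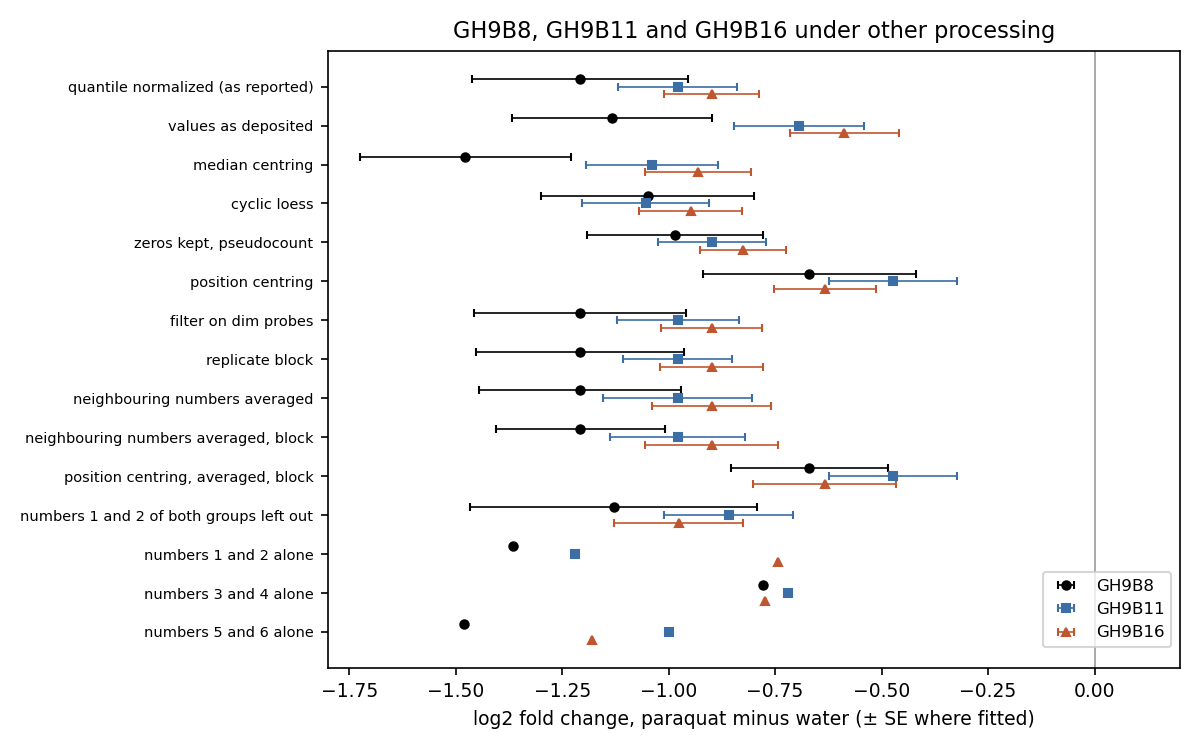
Log2 fold change (paraquat minus water, ± SE where fitted) of GH9B8, GH9B11 and GH9B16 under each way of processing; the last 3 rows take 2 samples of each group alone and have no error. All values are below 0, and the block, the averaging and the filter can change the SE alone. The sizes are smallest with position centring for GH9B8 (-0.67) and GH9B11 (-0.47), and with the values as deposited for GH9B16 (-0.59).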

How the data were processed

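The authors deposited array intensities on a linear scale, 1 value per probe and sample. Not given in the sources used here are the scanner, the background correction and the scaling. The 12 columns had means of 0.944 to 1.07 and held 108 to 148 zeros each. Precision is limited by the number of arrays.

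Each zero was replaced by its column's smallest positive value, columns were quantile normalized because their medians differed (0.443 to 0.491 under water, 0.563 to 0.635 under paraquat), and log2 was taken. A linear model without a block was fitted to all 3439 probes (limma 3.58.1, moderated by eBayes, R 4.3.3), and two-sided p-values were adjusted by Benjamini-Hochberg over these probes, with calls under 0.05. The fit was tested on simulated data. Figures were drawn with matplotlib 3.10.9 in Python 3.11.15. Genes come from the platform annotation with symbols from RefSeq (TAIR10.1): 692 probes list 1 gene, 870 several, and 1877 are unnamed here. The array names no build, so coordinates are left out, and sequences were not used here.

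Samples of equal number deviated together (correlations of deviations from the group means 0.337 to 0.505 over 3186 probes). By the data, though not by the labels, equal numbers thus share part of their deviations. Different numbers were not compared across the groups in the same way, so whether equal numbers are true pairs was not tested. Genes and lists were chosen with earlier results of these data known. The text names the 3 genes, every other list gene with its own probe, and for each of the 3 the 3 most alike probes; other probes were named after their values were seen. Alternatives were other scalings, a pseudocount of 0.05, a filter at a mean of 0.2, the replicate block, averaging of neighbouring numbers, position centring and leaving out samples.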

Additional observations from a re-analysis of the deposited data

Results flagged for a closer look

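Dixon's test at the 5% level divides a sample's gap to its nearest neighbour by the whole range. Run on the normalized log2 values, it picked out a sample in 5 of 26 groups, where about 1.3 would be picked by chance. The ratios depend on that scale and, for samples listed at 0, on the value given to zeros. Deposited values are printed beside them, but no ratio was taken on the deposited scale. For GH9B16, paraquat sample 6 was low (ratio 0.679), at a deposited 0.333. For GH9B12, paraquat sample 1 was low (ratio 0.870) because it is listed at 0. For the second probe of GH9B14 and GH9B15, water sample 1 (ratio 0.730, deposited 0.0722) and paraquat sample 1 (ratio 0.667, deposited 0.0972) were low. For LHB1B2, water sample 6 was high (ratio 0.638), at a deposited 23.3.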

How the results depend on the processing

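GH9B8, GH9B11 and GH9B16 stayed below 0 under every alternative run. Of these runs, the replicate block, the averaging of neighbouring numbers and the filter on dim probes could change errors and calls alone. Each number is in both groups and the filter came after normalization, so the log2 differences were fixed there. With the values as deposited GH9B11 was at -0.69 and GH9B16 at -0.59, and after position centring the 3 genes were at -0.67, -0.47 and -0.63, also when samples of neighbouring numbers were averaged and paired by a block. With samples 1 and 2 alone, a choice made after seeing the data, GH9B11 was at -1.22; with samples 3 and 4 alone it was at -0.72; with samples 5 and 6 alone GH9B16 was at -1.18. Leaving out each sample in turn gave -1.41 to -1.11 for GH9B8, -1.06 to -0.91 for GH9B11 and -0.93 to -0.81 for GH9B16. Over all probes 1805 were called, 1680 to 1813 with a sample left out, 1160 with neighbouring numbers averaged and 926 with position centring, averaging and the block together. The share of calls that were higher was 45.8%, and 60.1% with the values as deposited. The replicate block called 1964 and left the log2 difference of GH9B8 at -1.21 by construction, and it changed the call of neither CSLA01 nor GH9B12. Of the 2 wall genes, 1 passed under every alternative run, also with each sample left out (1 to 1); GH9B12 gave no value under the filter on dim probes and was at -0.14 without samples 1 and 2 of both groups. LHB1B2 lost its call after position centring alone (-0.20) and with averaging and the block added. The cause of these shifts was not tested.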

Other observations

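Further wall genes shared probes with their relatives, and these values belong to no single gene. A probe of the cellulose synthase-like genes CSLC5 and CSLC6 and another relative fell by 1.13 on the log2 scale (SE 0.09; limma, adjusted p = 1.35e-06), with deposited means of 1.93 under water and 0.984 under paraquat, and kept its call after position centring (-0.65, adjusted p = 0.000154). A second probe that lists CSLC5 with 3 other relatives rose by 0.50 (SE 0.19; limma, adjusted p = 0.0416), from 0.402 to 0.701, and stood at 0.77 after centring (adjusted p = 0.00567); with neighbouring numbers averaged and their pair as a block its adjusted p was 0.0773. The probe of the expansin-like genes EXLA2 and EXLB1 fell by 0.95 (SE 0.20; limma, adjusted p = 0.00159) and was at -0.44 after centring (adjusted p = 0.0903). The probe of the β-glucosidase genes BGLU45 and BGLU46 fell by 1.10 (SE 0.37; limma, adjusted p = 0.0267) and was at -0.56 after centring (adjusted p = 0.215), and 5 of its 6 paraquat values lay under the 5th percentile of values above 0. Other probes list wall genes together with genes outside the lists. Of these, a probe of CSLC12 and 2 other genes rose 2.01-fold (log2 SE 0.15; limma, adjusted p = 0.000147), from 37.4 to 82.1, and stood at a log2 difference of 1.49 after centring (adjusted p = 2.15e-05). Another probe, which lists the same genes and a further one, did not rise. It was at -0.39 (limma, adjusted p = 0.166) and at 0.08 after centring (adjusted p = 0.843). A probe of 4CL8, on the lignin list by its symbol, and 1 other gene rose by 1.91 on the log2 scale (SE 0.15; limma, adjusted p = 1.65e-06), from 0.414 to 1.77, and stood at 1.20 after centring (adjusted p = 2.88e-05). Over the cellulose synthase, pectin and lignin lists there were 6 such probes, of which 2 rose, 2 fell and 2 did not pass. Both falls lost their call after centring. A probe of 4CL8, OPCL1 and other genes, which had not passed, was called lower after centring (-0.63; limma, adjusted p = 0.00845). No probe lists only genes of the xyloglucan, pectin, wall protein or lignin lists. Among the antenna genes of the green tissue list, a probe of LHCB4.1, LHCB4.2 and LHCB4.3 fell by 0.97 (SE 0.14; limma, adjusted p = 0.00012) and stood at -0.48 after centring (adjusted p = 0.0115).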
